A study of Mus musculus with 23 samples.

Results

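DCS against vehicle in brain of Grin2b heterozygous mutant mice was described over 12 of the 23 RNA-seq libraries of the study and over 17256 of the 18848 genes in its table, those with a mean value of at least 10 over all libraries. There were 6 libraries from heterozygous (HT) mice given DCS and 6 from HT mice given vehicle. A further 5 libraries from wild-type (WT) mice given DCS and 6 from WT mice given vehicle served to set the HT values beside. The mice of all 4 groups were C57BL/6J males whose brain was taken at postnatal day 17, and the mutation in the HT mice is Grin2b C456Y. DCS commonly stands for D-cycloserine, which the labels do not spell out. The sources used here give no dose, route or timing of DCS, no composition of the vehicle and no region of the brain. Nothing in the labels ties each library to a separate mouse. The p-values therefore describe variation between libraries, and part of it may be technical.

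NMDA receptors are glutamate-gated cation channels of excitatory synapses that open only when a co-agonist, glycine or D-serine, also occupies the GluN1 subunit. D-cycloserine is a partial agonist at that co-agonist site. Calcium entering through the channel acts on calmodulin, CaMKII and calcineurin, and through them on transcription of early genes such as Fos and Arc in the nucleus. In forebrain of young rodents GluN2B, the product of Grin2b, is an abundant GluN2 subunit, joined by GluN2A as synapses mature.

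Grin2b (ENSMUSG00000030209) lies on the minus strand of chromosome 6 from 135713233 to 136173511 in GRCm38. Reads of either allele are counted together, and the genotype of a library could not be checked from the table.

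Values are read counts that the authors scaled between libraries, called normalised reads below, and the total per library ran from 32.3 M to 33.5 M (M for mega). Neurons, glia and vessels of brain were all represented, with 14 of 14 excitatory neuron markers, 17 of 17 astrocyte markers and 25 of 25 oligodendrocyte and myelin markers among the genes tested. Some libraries stood apart from the others of their group. HT DCS replicates 5 and 6 had the lowest hindbrain and monoamine markers, with list means of 4.54 and 4.78 (mean log2 value) against 5.36 to 6.24 in the other 10 HT libraries. HT DCS replicate 5 also had the lowest cerebellar markers. HT vehicle replicate 6 had the lowest Grin2a and Grin2b and the highest ribosomal protein list mean of its group. In tissue of this kind, fewer cells of a type and less RNA per cell cannot be told apart.

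The comparison asked which transcripts differ in HT brain after DCS. No gene passed the test at an adjusted p under 0.05, which is 0% of the 17256 genes (limma on log2 values, Benjamini-Hochberg adjustment over all genes, two-sided). The smallest adjusted p was 0.222, for Ehd1. At an unadjusted p under 0.05 there were 828 genes, or 4.8% of those tested, of which 383 (2.22%) had a higher and 445 (2.58%) a lower mean in HT DCS, and 5% of the genes tested is 862.8. A higher mean in HT DCS was found for 49.3% of genes and a lower mean for 50.7%. The median absolute difference was 0.05 on the log2 scale, where 1 is a doubling. The fit also bounded the differences. The 95% interval lay wholly within 0.25 log2 of 0 for 10338 genes (59.9%), within 0.5 for 14119 (81.8%) and within 1 for 16758 (97.1%). The median half-width of that interval was 0.43 for the 4415 genes with a mean of 10 to 100, 0.15 for the 6307 with a mean of 100 to 1000, and 0.09 for the 6534 above that.

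**Figure D1:**
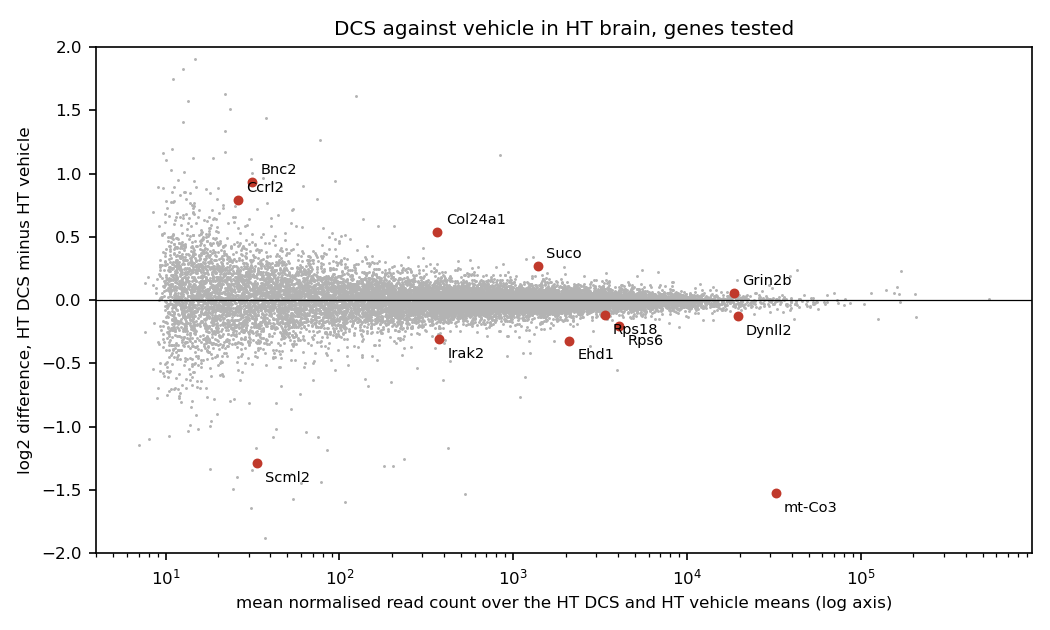
Log2 difference (HT DCS minus HT vehicle, vertical axis) against mean normalised read count over the HT DCS and HT vehicle means (horizontal axis, log scale), with a point for each gene tested and named genes in red. The scatter narrows as the mean grows, and Scml2 at -1.29 and mt-Co3 at -1.52 stand far below 0, while 7 genes lie beyond the vertical axis.

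The NMDA receptor subunit mRNAs, which encode the target of D-cycloserine, had similar levels with and without DCS, and the 95% interval of all 7 contained 0. Grin2b, the mutated gene itself, had 15564, 19255 and 20959 normalised reads in HT DCS (lowest, median and highest of 6), against 14618, 18934 and 19880 in HT vehicle. The groups overlapped, with HT vehicle replicate 6 the lowest of all 12. The log2 difference was 0.05 ± 0.08 (SE), with an interval from -0.12 to 0.23 (limma, adjusted p = 0.979), and the WT difference was 0.06. Without HT vehicle replicate 6 the HT difference was -0.0098. Grin1, for the obligatory GluN1 subunit that carries the site D-cycloserine binds, had 19626, 20460 and 22363 in HT DCS, against 20003, 20493 and 21350 in HT vehicle. Its difference of 0.02 had an interval from -0.05 to 0.09, the narrowest of the 7. Grin2a, for the GluN2A subunit, averaged 5767 ± 418 in HT DCS and 5785 ± 602 in HT vehicle (SD, n = 6 each), a difference that rounds to 0. Among the other 4, Grin2c was 3474 in HT DCS against 3637 in HT vehicle, Grin2d 1403 against 1368, and Grin3a, for a glycine-binding GluN3 subunit, 2644 against 2510. Grin3b was scarcely read, at 24.8 in HT DCS and 31.7 in HT vehicle, and its interval from -0.80 to 0.19 bounds it poorly.

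Genes that make, move or degrade the co-agonists glycine and D-serine were measured beside the receptor, with 5 of 12 higher and 7 lower in HT DCS and 0 past the test. Their median difference was -0.02, and that of all genes tested was -0.0012. Dao, the oxidase that degrades D-serine, was the member with the smallest p. It had 84.0, 117.5 and 134.0 normalised reads in HT DCS (lowest, median and highest), against 125.4, 143.7 and 156.5 in HT vehicle. All 6 HT DCS libraries lay under the HT vehicle mean, though 2 of them lay above the lowest HT vehicle library. The difference was -0.37 ± 0.12 (limma, unadjusted p = 0.00527, adjusted p = 0.973). Dao averaged 130.1 in WT DCS and 112.3 in WT vehicle, a difference of 0.21 in the other direction. Slc6a9, the glial glycine transporter GlyT1, averaged 2316 in HT DCS and 2471 in HT vehicle.

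Genes acting at and below the receptor lay close to 0 as groups. CaMKII and calcineurin signalling genes had 11 of 15 members higher and 4 lower in HT DCS, with a median of 0.02. AMPA receptor subunits and their auxiliary proteins had 8 of 14 higher, the scaffolds of the postsynaptic density 8 of 16, and GABA-A receptor subunits 7 of 14, with medians between -0.00046 and 0.01. The interval of every member contained 0 in these 4 lists, and 0 members passed the test.

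Early genes of neuronal activity had lower means in HT DCS in 36 of the 42 measured, where 50.7% of all genes were lower, but none of the 42 passed the test. These genes were read in the same libraries, so they are not separate observations. Their median difference was -0.13, against -0.0012 for all genes. The mean of the list, in log2 values, was 10.06, 9.51, 9.88, 9.53, 9.83 and 9.89 in HT DCS replicates 1 to 6. In HT vehicle replicates 1 to 6 it was 9.69, 10.04, 10.12, 9.56, 10.12 and 10.12. The groups overlapped widely, since HT DCS replicate 1 stood among the high vehicle libraries and HT vehicle replicates 1 and 4 among the low treated ones. The median stayed below 0 under all 28 alternatives, from -0.17 without HT vehicle replicate 4 to -0.09 without HT DCS replicate 2. In WT brain 24 of the 42 were higher in WT DCS and 18 lower, with a median of 0.02, where 50.3% of all genes were higher and 49.7% lower.

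Jun, a subunit of the AP-1 transcription factor, had the smallest p of these genes, with 1587, 1779 and 1974 normalised reads in HT DCS against 1769, 1941 and 2214 in HT vehicle (log2 difference -0.13 ± 0.05, limma, adjusted p = 0.973). Arl4d, a small GTPase, averaged 456.3 in HT DCS and 533.4 in HT vehicle. Of the 6 members with higher means, those with the smallest p were Rheb, a GTPase that activates mTOR complex 1, at 2509 against 2377, and Scg2, a secretogranin, at 8092 against 7949. Better known members, chosen after their values were seen, varied more between libraries than between groups. Fos, the partner of Jun in AP-1, had 535.2, 1106 and 1897 in HT DCS against 618.2, 1648 and 1969 in HT vehicle, and its interval ran from -1.24 to 0.40. Arc, a regulator of AMPA receptor endocytosis, averaged 3236 ± 1337 in HT DCS and 4652 ± 1744 in HT vehicle (SD, n = 6 each), with all 6 HT DCS libraries under the HT vehicle mean and an interval from -1.34 to 0.23. Junb averaged 1536 in HT DCS and 1904 in HT vehicle. Npas4, a transcription factor induced by calcium entry, averaged 811.4 ± 226 in HT DCS and 845.8 ± 121 in HT vehicle, the least difference of these 4, and its log2 difference was 0.0090 without HT DCS replicate 2.

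Many early genes carry cAMP response elements, the sites of the activity-regulated factor CREB, near their start. The promoters of Fos, Junb and Npas4 are shown as those of better known members, chosen after their values were seen. Capitals mark the half-site TGACG or its reverse complement CGTCA. The windows run from 250 bases before to 30 after the RefSeq start in GRCm38.p6. They cover chr12:85473640-85473919 on the plus strand, chr8:84978719-84978998 on the minus strand and chr19:4989942-4990221 on the minus strand.
Fos promoter: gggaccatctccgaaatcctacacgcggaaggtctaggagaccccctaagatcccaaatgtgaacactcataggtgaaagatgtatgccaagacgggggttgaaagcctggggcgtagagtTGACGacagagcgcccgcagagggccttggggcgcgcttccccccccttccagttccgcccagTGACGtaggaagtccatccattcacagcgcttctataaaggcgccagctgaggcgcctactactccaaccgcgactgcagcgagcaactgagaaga
Junb promoter: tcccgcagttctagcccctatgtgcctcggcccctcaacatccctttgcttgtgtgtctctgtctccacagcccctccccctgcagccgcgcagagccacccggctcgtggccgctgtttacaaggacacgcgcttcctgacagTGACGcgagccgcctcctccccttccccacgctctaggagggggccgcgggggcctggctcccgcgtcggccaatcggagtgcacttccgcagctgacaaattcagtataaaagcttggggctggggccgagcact
Npas4 promoter: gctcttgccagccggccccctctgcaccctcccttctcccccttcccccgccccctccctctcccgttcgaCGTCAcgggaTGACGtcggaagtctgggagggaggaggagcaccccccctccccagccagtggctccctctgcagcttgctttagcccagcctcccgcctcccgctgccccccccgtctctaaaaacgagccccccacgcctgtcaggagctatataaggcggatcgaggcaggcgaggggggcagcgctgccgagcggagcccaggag
The motif, searched on both strands, occurred 2 times in the Fos window, 1 time in that of Junb and 2 times in that of Npas4. Of the 32 list members with a RefSeq promoter, 21 (65.6%) held it, against 29.0% of the 12385 promoters of tested genes and 20.1% of all 27025. The full palindrome TGACGTCA, which contains the half-site on either strand, occurred in 6 of the 32 (18.8%), against 3.04% and 1.83%. Those 6 included Arl4d, lower in mean in HT DCS, and Scg2, higher in mean, and Rheb, also higher in mean, held the half-site. A match describes the letters and does not show binding. The shares describe which genes the list holds and are no evidence on DCS.

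Among single genes, the 10 with a lower mean in HT DCS and the smallest p were Ehd1, Rps6, Irak2, Scml2, Dynll2, Rps18, Col11a2, Gpr162, Mbd3 and Rab10os. For each of them all 6 HT DCS libraries lay under the HT vehicle mean, which a choice by smallest p favours. Their adjusted p ran from 0.222 to 0.727 (limma).

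Ehd1 (ENSMUSG00000024772, chromosome 19, 6276725 to 6300096, plus strand) encodes an ATPase that returns endocytosed receptors from recycling endosomes to the cell surface. It had 1688, 1793 and 2161 normalised reads in HT DCS (lowest, median and highest of 6), against 2054, 2330 and 2546 in HT vehicle. The groups overlapped at their edges, where HT DCS replicate 4 exceeded HT vehicle replicate 1. The log2 difference was -0.32 ± 0.06 (SE), with an interval from -0.44 to -0.20 (limma, adjusted p = 0.222). In WT brain Ehd1 averaged 2148 in WT DCS and 2056 in WT vehicle, a difference of 0.06. Leaving out HT DCS replicate 4 gave an adjusted p of 0.0164 and leaving out HT vehicle replicate 1 gave 0.0479, so Ehd1 passed in these settings. Those are the highest treated and the lowest vehicle library, so leaving out either widens the difference by construction. The adjusted p was 0.99995 without HT vehicle replicate 2, the highest vehicle library, and 0.893 without a trend by mean level in the fit. It was 0.9996 without HT DCS replicates 5 and 6, where the difference was -0.27. The other members of the family, chosen after their values were seen, showed little: Ehd3 averaged 3643 in HT DCS and 3627 in HT vehicle, Ehd2 303.1 and 283.1, and Ehd4 459.8 and 427.7. Ehd1 shares 0.273% of its 31-base words with another gene, Ehd3.

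Irak2, a kinase of interleukin 1 and Toll-like receptor signalling, had 315.2, 331.0 and 378.9 normalised reads in HT DCS, against 370.2, 415.6 and 447.0 in HT vehicle. Only HT DCS replicate 3 reached the vehicle range. The difference was -0.31 ± 0.07 (limma, adjusted p = 0.669), and it was -0.17 in WT brain, at 320.3 in WT DCS against 362.2 in WT vehicle. Scml2, a Polycomb protein known from the germ line, was read at low levels, with 13.1, 17.1 and 27.9 in HT DCS against 36.1, 42.7 and 75.7 in HT vehicle. Its groups did not overlap, and the difference was -1.29 ± 0.29 (limma, adjusted p = 0.669). WT libraries, at 38.1 in WT DCS and 27.2 in WT vehicle, spanned 11.4 to 60.0 and so overlapped both HT groups.

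Dynll2, a light chain of dynein and myosin V motors that also binds postsynaptic scaffolds, is among the abundant mRNAs here. It had 17508, 18763 and 19595 normalised reads in HT DCS against 19400, 20290 and 21626 in HT vehicle, overlapping only by HT DCS replicate 1. The difference was -0.12 ± 0.03 (limma, adjusted p = 0.669). Gpr162, an orphan G protein-coupled receptor gene, had 5264, 5489 and 5615 in HT DCS against 5628, 5913 and 6152 in HT vehicle, with no overlap. Mbd3, a subunit of the NuRD chromatin complex, averaged 2312 ± 132 in HT DCS and 2545 ± 72.4 in HT vehicle. Col11a2, a chain of type XI collagen, averaged 1376 ± 157 in HT DCS and 1608 ± 73.3 in HT vehicle. Rab10os, a non-coding RNA named for its position opposite Rab10, averaged 1082 in HT DCS and 1278 in HT vehicle. The kit keeps the strand, but no source used here says whether counting used it, so reads of Rab10os and Rab10 may not be separate. Rab10 itself averaged 5371 in HT DCS and 5270 in HT vehicle.

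On the other side, the 10 with a higher mean in HT DCS and the smallest p were Suco, Ccrl2, Col24a1, Bnc2, Wac, Abraxas1, Kctd18, Zfp326, Lima1 and Nqo2, with adjusted p between 0.669 and 0.867 (limma). Suco, an endoplasmic reticulum protein linked to bone formation in mice, had 1396, 1420 and 1788 normalised reads in HT DCS against 1124, 1280 and 1333 in HT vehicle. The groups did not overlap, and the difference was 0.27 ± 0.06 (limma, adjusted p = 0.669). Lima1, an actin-bundling protein, had 642.9, 721.2 and 754.4 in HT DCS against 605.6, 622.2 and 634.8 in HT vehicle, where the vehicle libraries lay close together. Nqo2, a quinone reductase, had 241.6, 267.8 and 279.1 in HT DCS against 200.6, 226.7 and 237.1 in HT vehicle. Neither of these 2 genes overlapped between groups.

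Col24a1, a fibrillar collagen gene, had 321.8, 438.5 and 545.2 normalised reads in HT DCS against 238.2, 292.9 and 385.4 in HT vehicle. The overlap came from HT DCS replicates 5 and 6, the lowest treated libraries at 321.8 and 379.4, and from HT vehicle replicates 4 to 6. The difference was 0.54 ± 0.13 (limma, adjusted p = 0.714), which puts it among the 5 largest in the higher direction for genes with a mean of at least 100 and an unadjusted p under 0.05. Without HT DCS replicates 5 and 6 it was 0.68. WT libraries averaged 454.2 in WT DCS and 453.6 in WT vehicle, near the HT DCS mean of 432.9 and above the HT vehicle mean of 298.4. HT vehicle stands in both of these comparisons, so the 2 are not independent. Bnc2, a zinc finger protein gene, averaged 41.5 ± 11.6 in HT DCS and 21.2 ± 6.13 in HT vehicle, and Ccrl2, an atypical chemokine receptor gene, 33.0 ± 7.06 and 18.9 ± 5.62. Wac, an adaptor for histone H2B ubiquitination during transcription, averaged 3749 ± 163 in HT DCS and 3388 ± 160 in HT vehicle. Abraxas1, a scaffold of the BRCA1-A repair complex, averaged 115.7 in HT DCS and 82.7 in HT vehicle. Kctd18 averaged 520.6 and 437.1 in that order of groups, and Zfp326, a zinc finger protein of RNA processing, 1001 and 857.1. The place of the WT means varied among these genes. WT DCS and WT vehicle lay nearer to HT vehicle for Suco (1299 and 1275), Wac (3399 and 3424), Kctd18 (448.3 and 449.8), Zfp326 (858.0 and 827.9) and Ccrl2 (22.7 and 22.8). They lay nearer to HT DCS for Abraxas1 (103.3 and 107.6) and Lima1 (676.9 and 670.9), and were split for Bnc2 and Nqo2.

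**Figure D2:**
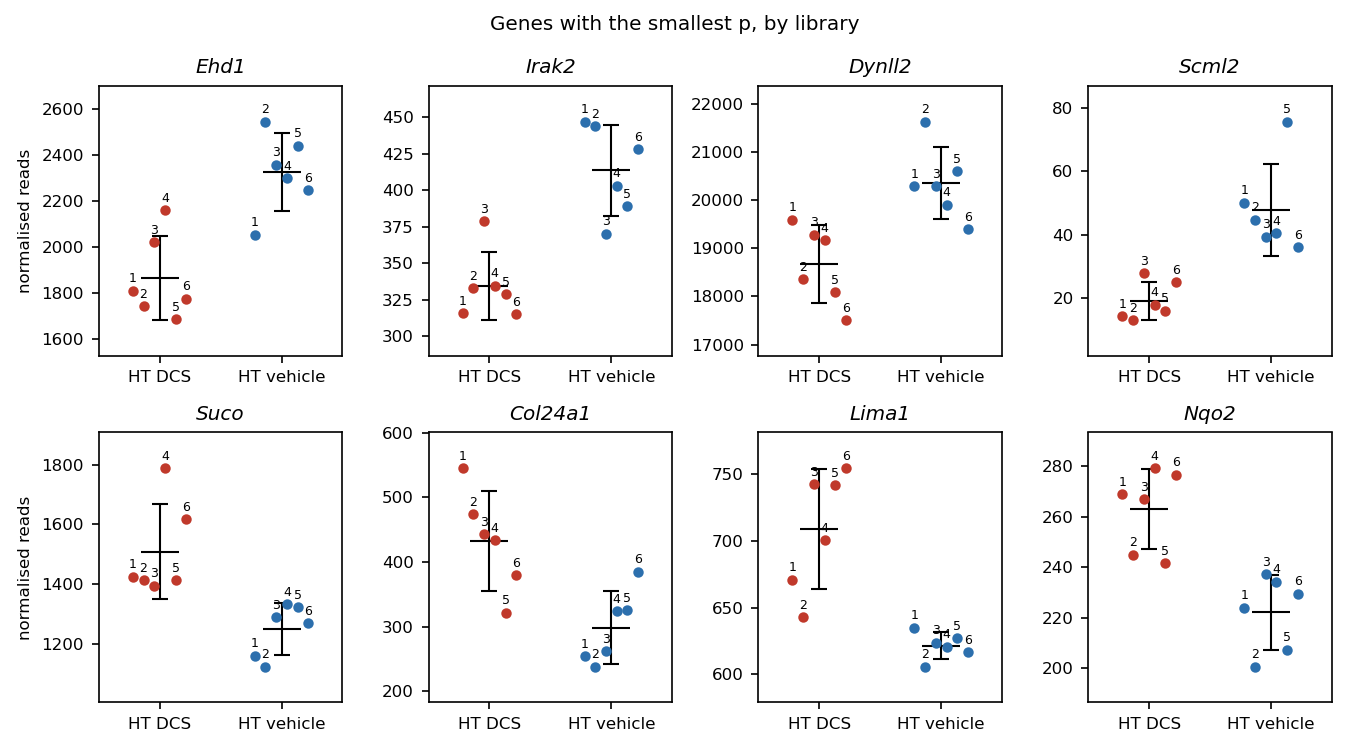
Normalised reads of 8 genes in each library, HT DCS in red and HT vehicle in blue, with the replicate number beside each point and bars for mean ± SD (n = 6 each). Scml2, Suco, Lima1 and Nqo2 do not overlap between the groups, while Ehd1, Irak2, Dynll2 and Col24a1 overlap by 1 or more libraries.

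Over the whole table the groups did not overlap for 9 genes higher in HT DCS (0.0522% of the genes tested) and 13 lower (0.0753%). Besides those named, the 5 with the smallest p outside predicted models, chosen after their values were seen, were Slc31a2 (log2 difference -0.22), Adss (0.10), Tbc1d4 (-0.15), Adamts2 (-0.14) and Nol11 (0.16). These encode a copper transporter, an adenylosuccinate synthase, a Rab GTPase-activating protein, a procollagen protease and a nucleolar protein, in that order. Each difference was small beside that of Scml2.

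Rps6, a protein of the small ribosomal subunit and the second smallest p of all, has a processed pseudogene, Rps6-ps4, that carries the same letters. Rps6 lies on chromosome 4 from 86854660 to 86857412 and Rps6-ps4 (ENSMUSG00000081406) on chromosome 2 from 75191073 to 75191822, both on the minus strand. All 747 coding bases of Rps6 are identical in the pseudogene (100%), and 45.0% of the 31-base words of Rps6 transcripts occur in it. The first 120 coding bases are shown once because they read the same at both loci, across introns between 86856746 and 86857326 on chromosome 4 and without a break at chr2:75191703-75191822.
Rps6 and Rps6-ps4, coding bases 1 to 120: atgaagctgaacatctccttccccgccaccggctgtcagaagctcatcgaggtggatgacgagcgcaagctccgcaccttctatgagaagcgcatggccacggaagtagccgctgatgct
Rps6 had 3485, 3859 and 3926 normalised reads in HT DCS against 4076, 4281 and 4572 in HT vehicle, with no overlap and a difference of -0.20 ± 0.04 (limma, adjusted p = 0.669). Rps6-ps4 lay the other way, with 738.7, 1100 and 1376 in HT DCS against 257.9, 485.6 and 1020 in HT vehicle. The sum of the 2 averaged 4878 ± 209 in HT DCS and 4880 ± 154 in HT vehicle (SD, n = 6 each). The reads assigned to either locus alone are therefore uncertain, and no difference is seen in their sum.

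**Figure D3:**
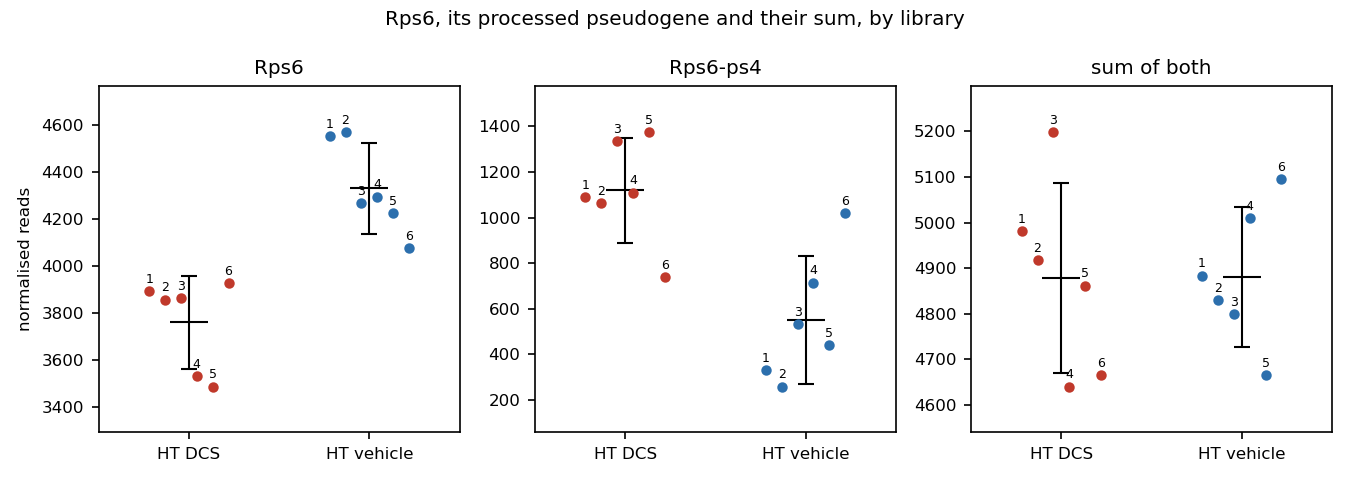
Normalised reads of Rps6, of its processed pseudogene Rps6-ps4 and of their sum in each library, HT DCS in red and HT vehicle in blue, with replicate numbers and bars for mean ± SD (n = 6 each). Rps6 is lower and Rps6-ps4 higher in HT DCS, and the sums lie between 4640 and 5199 in HT DCS and between 4664 and 5096 in HT vehicle.

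The largest differences among genes with a mean of at least 100 and an unadjusted p under 0.05 included further genes that share sequence with another gene. Mt-Co3, a mitochondrially encoded subunit of cytochrome c oxidase, had 8071, 11231 and 58222 normalised reads in HT DCS against 15232, 50460 and 62729 in HT vehicle, and HT DCS replicate 4 stood alone at the top of its group. Of its 31-base words 99.9% occur in the nuclear copy Gm28437, and the sum of both averaged 201380 ± 15379 in HT DCS and 200860 ± 6542 in HT vehicle. Rpl10, a large subunit protein, averaged 944.8 in HT DCS and 1399 in HT vehicle, and shares 31.9% of its words with Rpl10-ps3. Together they averaged 4583 ± 154 in HT DCS and 4791 ± 202 in HT vehicle. Ggnbp1 averaged 118.7 in HT DCS and 85.9 in HT vehicle, and 58.4% of its words occur in Zbtb9, a separate gene. Together they averaged 620.6 ± 27.2 in HT DCS and 611.0 ± 37.1 in HT vehicle.

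Of the remaining large differences, Crybg3 was lower at 251.7, 290.6 and 420.1 normalised reads in HT DCS against 267.4, 516.7 and 616.5 in HT vehicle. The groups overlapped widely, with 5 of the 6 HT DCS libraries inside the HT vehicle range and HT vehicle replicates 3 and 6 inside the HT DCS range. Klk6, a serine protease of oligodendrocytes, had 51.1, 126.6 and 163.4 in HT DCS against 124.3, 156.1 and 205.5 in HT vehicle, and the lowest values were HT DCS replicates 5 and 6 at 51.1 and 65.3, the libraries with low hindbrain markers. Its log2 difference was -0.63 with all libraries and -0.20 without those 2. Cacna2d4, an auxiliary calcium channel subunit, averaged 113.2 in HT DCS and 156.3 in HT vehicle. Higher in HT DCS were Cep128, a centriole protein, at 196.6 against 135.4, and Pola1, the catalytic subunit of DNA polymerase alpha, at 165.7 ± 12.1 against 123.9 ± 18.2. The adjusted p of these genes lay between 0.893 and 0.973 (limma).

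The gene lists for cell types and brain regions gave 0 members past the test in any list, and in every list the library means of the groups overlapped. Oligodendrocyte and myelin markers had lower means in HT DCS in 23 of 25 genes, with a median of -0.13. Mag, myelin-associated glycoprotein, had 11367, 13431 and 14918 normalised reads in HT DCS against 12663, 14974 and 17265 in HT vehicle (limma, unadjusted p = 0.0237, adjusted p = 0.973). Its log2 difference was -0.16, and -0.09 without HT DCS replicates 5 and 6. The list mean was 12.03, 11.92, 12.13, 11.74, 11.77 and 11.51 in HT DCS replicates 1 to 6, against 12.04, 12.05, 12.10, 11.96, 11.91 and 11.74 in HT vehicle replicates 1 to 6. Replicates 4 to 6 were the lower ones in both groups. Without HT DCS replicates 5 and 6 the median was -0.01. That setting was chosen after seeing the data and kept HT vehicle replicates 5 and 6. The difference of list means was -0.04 with replicates 1 to 3 of both groups and -0.19 with replicates 4 to 6. In WT brain 10 of the 25 were higher in WT DCS and 15 lower, with a median near 0.

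The list of hindbrain and monoamine markers held Hox genes of the caudal brain and genes of serotonin, noradrenaline and dopamine cells and of glycine transmission. Of its 25 genes 21 were in the table and 18 were tested. They were lower in 14 of the 18, with a median of -0.20. Without HT DCS replicates 5 and 6 the median was 0.20. Those 2 were left out after their low values were seen. HT vehicle replicates 4 and 6, with list means of 5.37 and 5.36, were kept. Leaving out only low HT DCS libraries raises the HT DCS side by construction. The same list was lower in WT DCS in 12 of the 18, with a median of -0.09. Tph2, the serotonin-synthesising enzyme of raphe neurons, averaged 246.1 in HT DCS and 278.8 in HT vehicle. Its log2 difference was -0.20, and -0.03 without HT DCS replicates 5 and 6. Slc6a2, the noradrenaline transporter, averaged 74.1 in HT DCS and 60.6 in HT vehicle, with differences of 0.28 and 0.22. Cerebellar markers were lower in 17 of 19, with a median of -0.08 that became 0.0020 without those 2 libraries. HT DCS replicate 5 had a cerebellar list mean of 11.35 against 11.64 to 11.73 in the other 5. Fat2, a cadherin of granule cells, averaged 6479 in HT DCS and 7202 in HT vehicle, with a difference of -0.15, and -0.08 without those 2 libraries. The part of these tissue markers in the myelin difference was not tested.

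Choroid plexus markers were lower in 11 of 15 genes, with a median of -0.13, and 13 of the 15 were higher in WT DCS. Folr1, a folate receptor of that epithelium, averaged 52.7 in HT DCS and 71.0 in HT vehicle, and 75.4 in WT DCS and 51.9 in WT vehicle. Blood cell markers were lower in 5 of 5, with a median of -0.13, and in WT DCS also in 5 of 5, with a median of -0.17. The HT median became 0.11 with replicates 1 to 3 alone. Hbb-bs, an adult beta-globin, ranged from 2792 to 10108 in HT DCS and from 4483 to 6428 in HT vehicle. Of the genes for interferon response and antigen presentation, 16 of 23 were lower in HT DCS, with a median of -0.08. In WT DCS 20 of the 23 were lower, with a median of -0.15. Irf7, which switches on interferon genes, averaged 36.3 in HT DCS and 47.8 in HT vehicle. Mx1, an interferon-induced GTPase, was the exception with the smallest p, at 13.3 ± 4.48 in HT DCS against 6.03 ± 3.29 in HT vehicle (limma, unadjusted p = 0.00268, adjusted p = 0.893).

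Immature neuron markers were higher in 15 of 16 genes, with a median of 0.06. Gap43, a growth cone protein, had 7826, 8716 and 9304 normalised reads in HT DCS against 7304, 7738 and 9071 in HT vehicle. HT DCS replicate 6 had the highest list mean at 11.84, and without it the median was 0.02. Without HT vehicle replicate 6, the highest of its group at 11.73, the median was 0.10. It stayed above 0 under all 28 alternatives. Neurod1, the exception, is also a cerebellar granule cell marker and averaged 2914 in HT DCS and 3176 in HT vehicle. With all libraries the other cell types lay nearer to 0. Astrocyte markers had 4 of 17 higher (median -0.04), microglia markers 11 of 20 (median 0.01), endothelial markers 3 of 18 (median -0.04), oligodendrocyte precursor markers 7 of 14 (median 0.01), pericyte and smooth muscle markers 7 of 13 (median 0.02) and meningeal fibroblast markers 5 of 15 (median -0.05). Excitatory neuron markers had 7 of 14 higher and inhibitory neuron markers 8 of 15, with medians that round to 0. By region, striatal markers had 7 of 17 higher, hippocampal 5 of 12, thalamic 3 of 10, hypothalamic 3 of 11 and olfactory bulb 6 of 10, with medians between -0.05 and 0.02. Some of these medians depended on the libraries used: that of microglia markers was -0.25 with replicates 1 to 3 alone and 0.26 with replicates 4 to 6 alone, that of meningeal markers -0.16 and 0.05, and that of hypothalamic markers 0.07 and -0.15. Cytosolic ribosomal protein genes, mentioned after their values were seen, were lower in 65 of 84 with a median of -0.04, where 50.7% of all genes were lower. Their median was 0.03 with replicates 1 to 3 alone and -0.11 with replicates 4 to 6 alone. The difference of their list means was -0.04 with all libraries and 0.0012 without HT DCS replicates 5 and 6. Rps6 and Rpl10, which share sequence with pseudogenes, are members of this list.

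**Figure D4:**
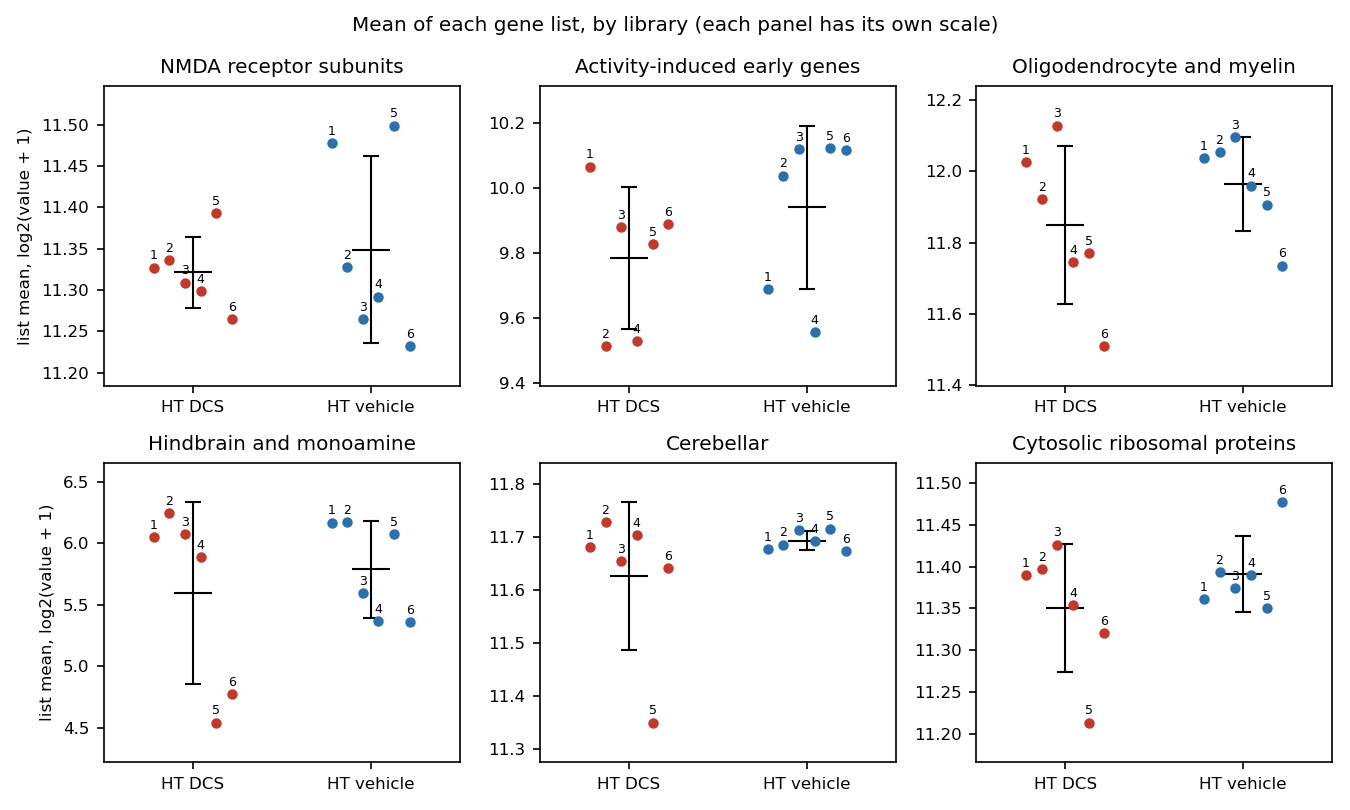
Mean log2(value + 1) of 6 gene lists in each library, HT DCS in red and HT vehicle in blue, with replicate numbers and bars for mean ± SD (n = 6 each), each panel on its own scale. The groups overlap in all 6 panels, and HT DCS replicates 5 and 6 lie lowest for hindbrain markers at 4.54 and 4.78.

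To ask whether the response to DCS differed between genotypes, the HT difference was set against the WT difference in the same fit. No gene passed (0% of 17256, limma interaction term), 756 (4.38%) had an unadjusted p under 0.05, and the smallest adjusted p was 0.984. In WT brain alone 0% passed too, with 497 genes (2.88%) at an unadjusted p under 0.05. The differences in the 2 genotypes, which share no library, had the same sign in 46.7% of genes. Pearson's r of the 2 differences was -0.04 across the 17256 genes and -0.26 across the 6534 with a mean of at least 1000. Both are descriptions, since genes of a library are not independent.

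Of genes whose interaction was positive, so that the HT difference lay above the WT difference, those with the smallest p were Bnc2, Sike1, Parp2, Gckr and Ccdc106. Sike1, a suppressor of the interferon kinase IKK epsilon, averaged 2130 in HT DCS and 1774 in HT vehicle, and 1699 in WT DCS and 2056 in WT vehicle (interaction 0.55 ± 0.13, limma, adjusted p = 0.984). Parp2, a DNA damage sensor, averaged 553.2 in HT DCS and 480.9 in HT vehicle, and 494.2 in WT DCS and 550.0 in WT vehicle. For both genes HT DCS stood near WT vehicle and HT vehicle near WT DCS, a pattern that a choice by positive interaction favours. Where the interaction was negative, the smallest p were those of Ehd1, Scml2, Rps6, Tmed9 and Gpr162. Tmed9, a cargo receptor of the early secretory pathway, averaged 2270 in HT DCS and 2444 in HT vehicle, and 2431 in WT DCS and 2283 in WT vehicle. The interaction of Ehd1 was -0.38 ± 0.09 (limma, adjusted p = 0.984). The interaction and the HT comparison share the 12 HT libraries, so the return of Ehd1, Scml2, Rps6, Gpr162 and Bnc2 is no second line of evidence.

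**Figure D5:**
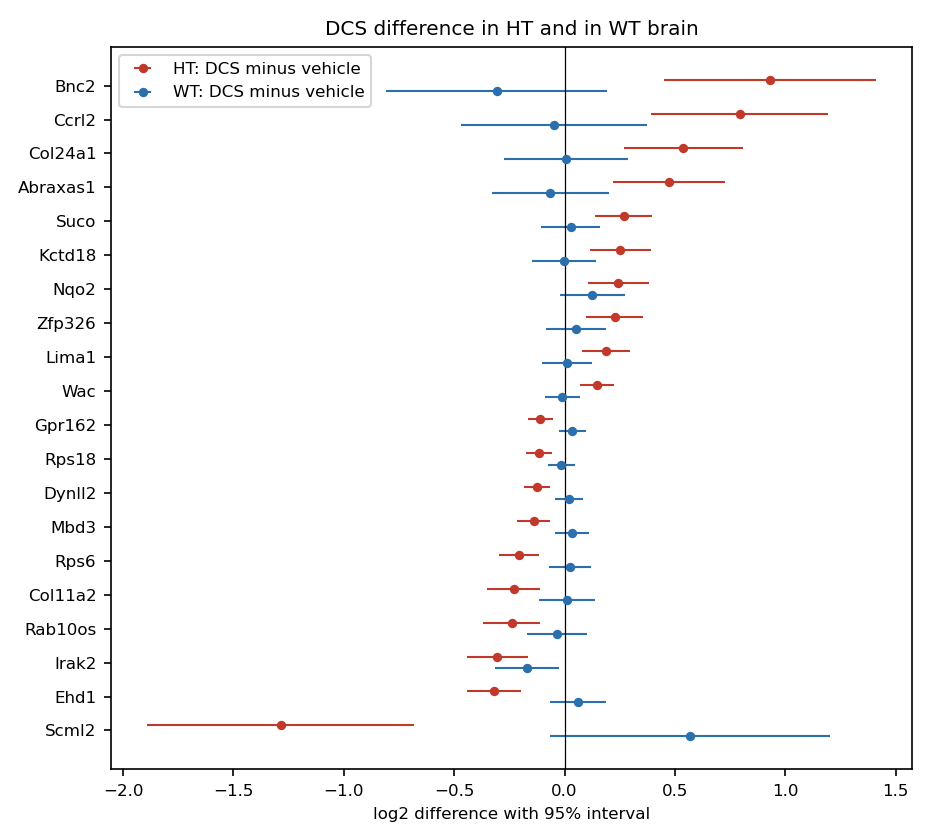
Log2 difference of DCS minus vehicle with its 95% interval (horizontal axis) for the 20 genes with the smallest p in HT brain, HT in red and WT in blue. The HT intervals exclude 0 because the genes were chosen for it, while 19 of the 20 WT intervals contain 0, Irak2 being the exception.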

How the data were processed

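Gene expression was compared in 12 brain libraries from HT mice (6 HT DCS and 6 HT vehicle), with 11 WT libraries (5 WT DCS and 6 WT vehicle) in the same fit. As deposited, the table holds for 18848 genes a decimal signal that is never negative, namely read counts on a scale the authors made common to the libraries. Tools listed in the submitters' processing notes, with no role or order, are DESeq2 1.26.0, Salmon 1.1.0 and R 3.6.2, and the build listed is GRCm38. Low values lie around, not on, multiples of a step, so whole reads could not be recovered and no count test was run. Scaling equalises totals, so changes in total RNA cannot be seen. Reads before scaling, and with them counting intervals, are not known per library.

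Genes with a mean of at least 10 over the 23 libraries were tested, 17256 in all, with limma 3.58.1 in R 4.3.3 on log2(value + 1). The model had 1 coefficient per group, and moderation was robust and followed the mean level. Two-sided p-values were adjusted over all genes by Benjamini-Hochberg, with a threshold of 0.05. Differences on this scale understate changes of low genes. The 3 contrasts were HT DCS minus HT vehicle, WT DCS minus WT vehicle, and their difference, HT minus WT. The procedure was also run on simulated data with known changes, in which genes varied independently. That run does not cover genes that deviate together within a library. Identifiers were given symbols by lookup, which left 16 without one. Coordinates came from GENCODE M21 on GRCm38, and promoters came from RefSeq on GRCm38.p6. Shared sequence was measured as 31-base words of transcripts found in another gene, a step chosen after the data were seen.

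The genes and the 41 gene lists were chosen with earlier results of these data known, and lists carry no test here. Named genes are the 10 with the smallest p in each direction, the 5 with the largest difference in each direction among genes with a mean of at least 100 and an unadjusted p under 0.05, the 7 NMDA receptor subunits, the 2 members with the smallest p in each direction of a described list, and the 5 with the smallest interaction p in each direction, without predicted models and pseudogenes. The text gives 64 of the 199 genes so named, and which list members it gives, like the sum of Rps6 and its copy and the values of Ehd2 to Ehd4, Fos, Junb, Npas4 and Arc, was chosen after their values were seen.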

Additional observations from a re-analysis of the deposited data

Results flagged for a closer look

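Of 152 groups of 6 values checked, 10 held a library far from the rest of its group, where chance alone gives about 1 in 20. HT DCS replicate 5 stood low for cerebellar markers, with a list mean of 11.35 (log2) against 11.64 to 11.73 in the other HT DCS libraries. HT DCS replicate 3 stood high for Irak2, at 8.57 (log2 value) against 8.30 to 8.39.

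The other 8 all concerned HT vehicle replicate 6. It stood low for Grin2a at 12.17 (log2 value) against 12.50 to 12.62, and for Grin2b at 13.84 against 14.14 to 14.28. Its list mean was low for AMPA receptors and auxiliary subunits at 11.85, for postsynaptic scaffolds at 12.74, for synaptic vesicle and release genes at 13.42 and for voltage-gated sodium, calcium and potassium channels at 12.07. It was high for nuclear oxidative phosphorylation genes at 10.98 and for cytosolic ribosomal protein genes at 11.48. These lists were read in the same library, so they are not separate observations. Leaving that library out gave 1283 genes at an unadjusted p under 0.05 in HT DCS against HT vehicle, where all libraries gave 828, and 0 at an adjusted p under 0.05 (limma). Leaving out HT DCS replicate 3, flagged above only for Irak2, gave 1332, so such a rise is not particular to HT vehicle replicate 6.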

How the results depend on the processing

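The count of genes past the test between HT DCS and HT vehicle was 0 in 26 of 28 alternatives and 1, Ehd1, without HT DCS replicate 4 (log2 difference -0.36, limma adjusted p = 0.0164) and without HT vehicle replicate 1 (-0.35, limma adjusted p = 0.0479), so leaving out single libraries gave 0 to 1. In WT brain and for the interaction it was 0 in all alternatives except 1 gene, Eif4ebp3, with replicate numbers 4 to 6 alone, a split chosen after seeing the data (limma adjusted p = 4.43e-04 and 0.0115). WT DCS held only replicates 4 and 5 in that split, and the log2 differences of Eif4ebp3 were -4.62 and 4.80. The cause was not tested. With a replicate block it was 0, and same-numbered libraries deviated from their group means with correlations of -0.036 to 0.077, so the numbers were not treated as pairs. Genes at an unadjusted p under 0.05 numbered 631 without HT DCS replicates 5 and 6 and 1493 with numbers 1 to 3 alone, against 828. Both of these settings were also chosen after seeing the data. In the planned settings that number ran from 655 without HT vehicle replicate 2 to 1332 without HT DCS replicate 3. It was 1091 or 1058 with a replicate block, 1045 with the covariate named below and 1099 with array weights. Of the 64 genes named, none of which passed with all libraries, 8 changed sign under at least 1 alternative. With numbers 1 to 3 alone the log2 difference was -0.078 for Ehd2, -0.113 for Grin2b, -0.025 for Grin3a and 0.090 for Hbb-bs, and with numbers 4 to 6 alone it was 0.093 for Grin2a, 0.057 for Npas4 and -0.032 for Scg2. Leaving out single libraries gave -0.0078 to 0.013 for Ehd3, -0.0098 to 0.109 for Grin2b, -0.176 to 0.0090 for Npas4, -0.329 to 0.042 for Hbb-bs and -0.064 to 0.031 for Grin2a. HT DCS replicate 4 decided the sign for Ehd3 and Hbb-bs, HT DCS replicate 2 for Npas4 and HT vehicle replicate 6 for Grin2b. Grin2a, at -0.00047 with all libraries, was 0.0029 after quantile normalisation and 0.0045 after median centring. The medians of 30 of the 41 lists changed sign under at least 1 alternative. Other alternatives were a pseudocount of 0.5 or 5, keeping low genes or requiring a mean of 50, moderation without trend or robustness, array weights, numbers 1 to 3 against 4 to 6 as a covariate, and the compared groups alone. Low genes are bounded poorly, with a median interval half-width of 0.43 at means of 10 to 100.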
